A study of Homo sapiens with 12 samples.

Results

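The 2 transfected forms of PEG10 that hold the capsid part of gag, gag-pol and gag, were compared with the nucleocapsid fragment (NC) and a control plasmid in HEK293 cells, a line derived from human embryonic kidney. The comparison sets the mean of gag-pol and gag against the mean of NC and control, with replicate number as a block, so that 6 libraries stand on each side and all 12 libraries of the series are used. Of the 26485 genes in the count table, *PEG10* itself and its chromosome 7 neighbours *COL1A2* and *CASD1* were set aside by rule, and 17173 of the remaining 26482 genes had enough counts to be tested. All libraries came from wild-type HEK293 cells transfected with a plasmid that drives its insert from a viral (CMV) promoter, and they differed in that insert: full-length PEG10 in the gag-pol group, the first reading frame alone (RF1) in the gag group, the C-terminal zinc-finger fragment of gag in the NC group, and HA-tagged LifeAct-Dendra2, an actin-binding peptide fused to a fluorescent protein, in the control group. Each group had 3 libraries, and GEO's design text states 3 passages of the cells without saying which library came from which. As a model, this is transient overproduction in a single cell line, with no untransfected cells and no construct that holds the capsid part alone.

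PEG10 is a retrotransposon gene kept by mammals as a working gene. Retroviral gag proteins are built from a capsid part, which assembles into shells, and a nucleocapsid part, whose zinc fingers bind nucleic acids, while pol carries the protease. In retroviruses and in several domesticated gag genes the capsid part allows particles to form and leave the cell, and the nucleocapsid part packages RNA. Cells read many disturbances through a small set of fast-responding genes. Immediate early genes such as *FOS*, *JUN* and *EGR1* are transcribed within minutes of a signal without new protein synthesis, NF-kB target genes respond to inflammatory and infection signals, and heat shock genes respond to unfolded protein in the cytosol.

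The gene counts of a library add the endogenous and the transfected transcript, so *PEG10* (GRCh38 chr7:94656325-94669695, forward strand) checked the constructs. Its share of all counts was 7.35%, 3.48% and 2.80% with gag-pol, 5.93%, 3.78% and 6.10% with gag, 0.303%, 0.238% and 0.389% with NC, and 0.0346%, 0.0341% and 0.0230% with control. Every library on the capsid-bearing side was above every library on the other side. The *PEG10* share therefore moved with the groups compared, and the capsid part, the amount of construct RNA and the plasmid cannot be told apart by these counts. A count per gene also does not show which part of *PEG10* was transcribed. Library totals ran from 30625725 to 45316749 counts on the capsid-bearing side and from 33996811 to 41708839 on the other, and the summed level of 9 kidney-line marker genes ran from 1040.1 to 1246 and from 919 to 1471 on the CPM scale (counts scaled for library size), with no marker called different. Summed markers of fibroblasts (21.4 to 29.5 against 17.3 to 53.9 CPM), blood cells (2.02 to 13.6 against 1.06 to 16.3 CPM) and endothelium (1.09 to 2.60 against 0.472 to 1.86 CPM) were low, overlapped between the sides and held no called gene. Of the 8 other tested genes within 1000 kb of *PEG10*, none was called, the lowest adjusted p being 0.087 for *TFPI2* (edgeR). In bulk RNA a change in how many cells express a gene and a change in its level per cell cannot be told apart.

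Promoters of 5 genes described below, all of which rose, are shown here. They were picked for carrying, close to the gene's start, the binding motif of a factor known to act in these fast responses. Some lower genes carry these motifs too, and the shares are given below. Each is the 150 bases before the RefSeq start on the gene's own strand, 5′ to 3′, from the RefSeq table of GRCh38.p14. Capitals mark the motif: GGGA and TTCC parted by 2 free bases, on either strand, a common form of the NF-kB site, in the first 2, and TGACGTCA, the cyclic AMP response element (CRE), in the others.
CXCL2 (chr4:74099196-74099345, reverse strand): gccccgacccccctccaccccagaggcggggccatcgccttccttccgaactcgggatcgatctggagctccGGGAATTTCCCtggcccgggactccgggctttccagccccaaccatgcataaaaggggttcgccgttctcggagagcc
TNFAIP3 (chr6:137867109-137867258, forward strand): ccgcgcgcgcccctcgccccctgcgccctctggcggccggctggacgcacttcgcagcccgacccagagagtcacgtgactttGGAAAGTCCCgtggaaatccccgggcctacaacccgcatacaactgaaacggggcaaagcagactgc
DUSP1 (chr5:172771196-172771345, reverse strand): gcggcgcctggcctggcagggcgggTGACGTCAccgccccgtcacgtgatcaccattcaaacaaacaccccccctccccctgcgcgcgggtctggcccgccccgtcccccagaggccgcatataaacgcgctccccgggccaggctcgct
PPP1R15A (chr19:48872271-48872420, forward strand): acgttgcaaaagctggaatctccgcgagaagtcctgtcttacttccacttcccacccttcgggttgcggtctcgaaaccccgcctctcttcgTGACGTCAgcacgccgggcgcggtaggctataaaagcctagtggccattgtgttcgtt
GPR3 (chr1:27392472-27392621, forward strand): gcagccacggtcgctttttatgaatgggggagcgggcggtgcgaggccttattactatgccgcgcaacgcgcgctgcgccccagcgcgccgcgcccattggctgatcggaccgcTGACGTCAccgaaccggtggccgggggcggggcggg

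In the capsid-bearing libraries, 384 genes were higher and 171 were lower than in the NC and control libraries at an adjusted p under 0.05 (edgeR's quasi-likelihood test, Benjamini-Hochberg adjustment), which is 2.24% and 0.996% of the genes tested and 3.23% in all. The changes were small: the 555 genes had a median of 0.31 on the log2 scale, sign aside, and 16 of them passed 1, 13 upward and 3 downward, the latter being the low-level genes *TAC4*, *HEPACAM2* and *SMOC2*, named after their values were seen. At an unadjusted p under 0.05 there were 2976 genes (17.3%). The split of higher to lower depended on scaling, since upper-quartile factors in place of TMM gave 300 higher and 208 lower. Of the 384 higher genes, 59 had all 6 capsid-bearing libraries above all 6 others, and of the 171 lower genes 10 had all 6 below, beside 77 (0.448%) and 18 (0.105%) over all genes tested.

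The largest rise among the called genes expressed at 1 log2 CPM or more was that of *SH2D3C* (chr9:127738317-127778710), an adaptor protein of the family that links receptors to Cas scaffold proteins. Its normalized count, scaled to the mean library size, was 2115, 1803 and 1797 with gag-pol and 1788, 1537 and 2143 with gag. With NC it was 756, 964 and 1216, and with control 646, 744 and 979. The lowest capsid-bearing library was above the highest of the rest, and the log2 fold change was 1.10 (standard error 0.10, adjusted p = 8.7e-06 in edgeR), a 2.14-fold rise. The difference was of like size in both pairs that share no library, 0.99 for gag-pol minus NC and 1.21 for gag minus control.

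*ARC* (chr8:142611049-142614479), an immediate early gene of neurons that is itself descended from a retrotransposon gag, had the next largest rise among these genes. Its normalized count was 3705, 2897 and 4058 with gag-pol, 4072, 4472 and 4365 with gag, 1056, 1584 and 2453 with NC, and 1662, 1907 and 2948 with control. Gag-pol replicate 2 was just below control replicate 3, and within each replicate number both capsid-bearing libraries were above the other 2. The log2 fold change was 1.08 (standard error 0.16, adjusted p = 0.018 in edgeR). It was 1.12 for gag-pol minus NC (adjusted p = 0.18) and 1.04 for gag minus control (adjusted p = 0.096), neither called in edgeR.

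*GPR3*, a receptor that raises cyclic AMP without a ligand and whose CRE is shown above, had normalized counts of 194 to 250.3 in the capsid-bearing libraries and 70.8 to 186 in the rest, with no overlap and a log2 fold change of 0.92 (standard error 0.16, adjusted p = 0.0028 in edgeR). *RHOB*, a small GTPase of the actin cytoskeleton that is quickly induced by stress, ran from 5432 to 10138 against 3290.4 to 5125 and rose by 0.90 (standard error 0.14, adjusted p = 0.014 in edgeR). *ZC3H12A*, an endonuclease that degrades inflammatory messages, rose by 1.04 (standard error 0.20, adjusted p = 0.037 in edgeR), and its sides stood apart by little, the lowest capsid-bearing library being at 739.9 and the highest of the rest at 739.7. *GEM*, a small GTPase that inhibits calcium channels, rose by 0.94 (standard error 0.19, adjusted p = 0.029 in edgeR), with overlapping sides.

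A few of the large rises came mostly from gag. *HIST1H1E*, a linker histone gene, stood at 93.6 to 269.6 with gag and at 49.0 to 67.5 with gag-pol, the level of the NC libraries (37.5 to 73.5). Its log2 fold change of 1.03 (standard error 0.21) held a difference of 2.05 for gag minus control and 0.02 for gag-pol minus NC, and most replication-dependent histone messages lack the tail that poly(A) selection needs. *LINC00346*, a long noncoding RNA, rose by 1.02 (1.73 for gag minus control, 0.31 for gag-pol minus NC). *DNAH17-AS1* (1.78 and 0.33) lies antisense within *DNAH17*, a dynein heavy chain gene that rose too (1.08 and 0.72), and without a stated strand setting the reads of this pair cannot be told apart.

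*C11orf96* (0.69) and *TXNIP* had the smallest adjusted p-values among the rises, with *SH2D3C*. *TXNIP*, an alpha-arrestin that binds thioredoxin and limits glucose uptake, had normalized counts of 1298, 1395 and 1081 with gag-pol and 1266, 1307 and 1000.2 with gag. It had 863, 1180.3 and 798 with NC and 539.7, 709.9 and 550.5 with control. NC replicate 2 overlapped the capsid-bearing libraries, and the log2 fold change was 0.70 (standard error 0.07, adjusted p = 5.9e-06 in edgeR). NC was itself above control by 0.65 (adjusted p = 0.00089 in edgeR), and the construct means rose from control through NC to gag and gag-pol. Gag-pol minus NC was 0.42 (adjusted p = 0.10) and gag minus NC 0.34 (adjusted p = 0.025), both in edgeR with a standard error of 0.10. The upper step was called for gag alone, although the gag-pol value was the larger. Each comparison was adjusted by itself, and over all genes tested they called 14 and 2895 genes. Gag-pol and gag differed by 0.08 (95% interval -0.13 to 0.29). *TXNIP* was the single called member among 8 tested alpha-arrestin and glucose-response genes (12.5%, beside 3.23% over all genes tested).

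**Figure D1:**
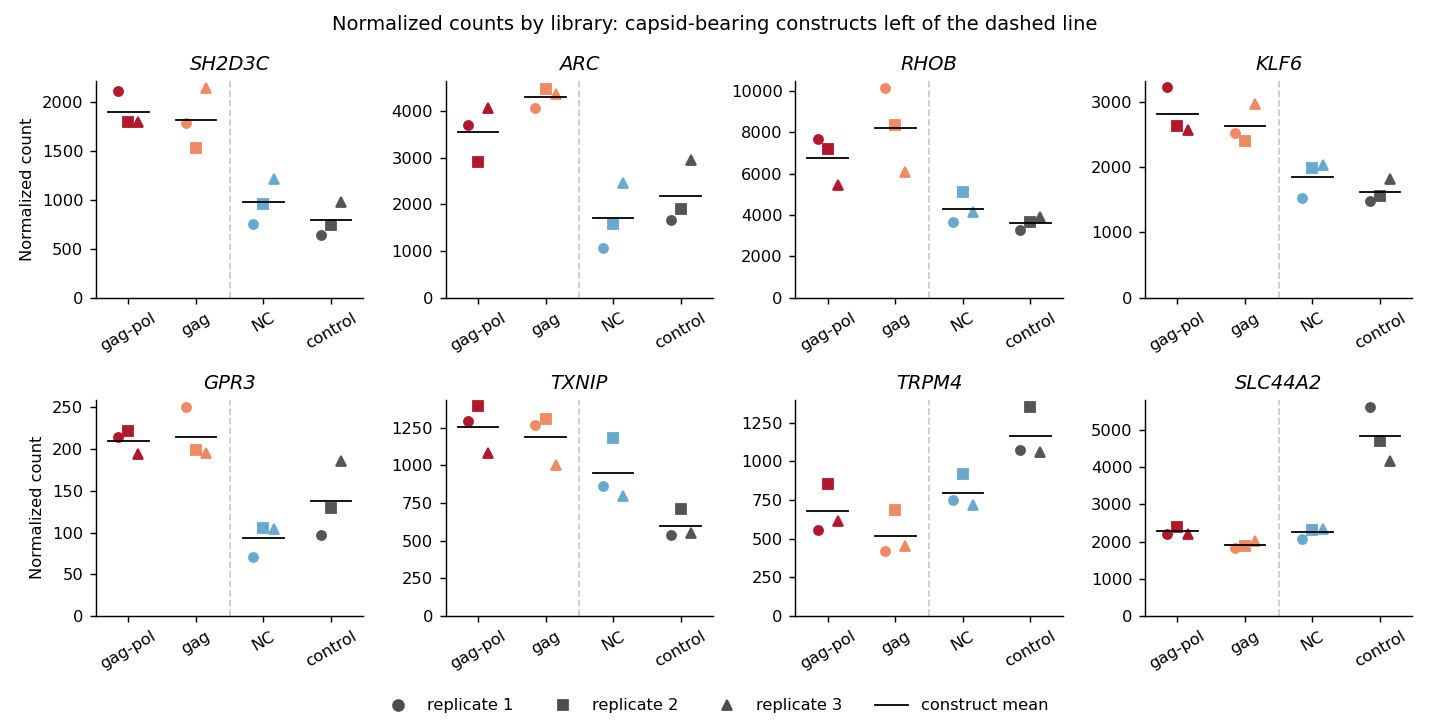
Normalized counts (y axis, linear, from 0) of 8 genes in all 12 libraries, by construct, with circles, squares and triangles for replicates 1, 2 and 3 and a line at each construct's mean. The sides stand apart for *SH2D3C*, *RHOB*, *KLF6* and *GPR3*, *ARC* overlaps by 1 library, *TXNIP* and *TRPM4* overlap, and for *SLC44A2* the control libraries alone are high.

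Among the lower genes, *SLC44A2*, a choline transporter-like protein of the plasma membrane and mitochondria, had 2219, 2397 and 2207 normalized counts with gag-pol and 1818, 1873 and 2013 with gag. NC libraries had 2073, 2327 and 2341, and control libraries 5631, 4707 and 4181. The log2 fold change between the sides was -0.66 (standard error 0.07, adjusted p = 5.9e-06 in edgeR), but NC was as low as gag-pol, with a difference of 0.02 for gag-pol minus NC against -1.35 for gag minus control. *SLC43A2*, a transporter of large neutral amino acids, had the same form, with -0.56 between the sides, 0.21 for gag-pol minus NC and -1.32 for gag minus control. In both genes every control library was above every library of the 3 PEG10 constructs.

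*TRPM4* (chr19:49157741-49211836), a sodium channel opened by calcium, also fell. It had 559, 854 and 616 normalized counts with gag-pol and 423, 682 and 449.7 with gag, against 752, 919 and 721 with NC and 1073, 1352 and 1058 with control. Within each replicate number both capsid-bearing libraries were below NC and control, and the log2 fold change was -0.72 (standard error 0.08, adjusted p = 7.9e-06 in edgeR). The fall was uneven between the pairs, with -0.25 for gag-pol minus NC (adjusted p = 0.43) against -1.18 for gag minus control, a difference of 0.93 (adjusted p = 0.0086), all in edgeR. NC minus control was itself -0.54 (adjusted p = 0.0034 in edgeR).

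Most of the other large falls were in genes that also differed between gag-pol and gag or between NC and control. *NPR3*, the receptor that clears natriuretic peptides, had 89.6, 78.0 and 68.8 normalized counts with gag-pol, 166, 171 and 254 with gag, 162, 103 and 202 with NC, and 250.2, 226 and 478 with control. It was lowest with gag-pol and highest with control, and its log2 fold change between the sides was -0.79 (standard error 0.16, adjusted p = 0.0076 in edgeR). The same gene differed by -1.15 when gag-pol and NC were set against gag and control (adjusted p = 6.4e-05 in edgeR). *CPNE7*, a calcium-dependent membrane-binding protein, differed by -0.76 between the sides and by -2.04 in that other split, and *SCG3*, a granin of secretory vesicles, by -0.77 and -1.17. *FGF21*, a stress-induced hormone (-0.71), *MAPK10*, a neuronal JNK kinase (-0.69), *FBXO2*, a ubiquitin ligase subunit for glycoproteins (-0.65), *ALDH1L1*, a folate enzyme (-0.64), and *RCBTB2* (-0.63) were among the 12 largest falls with *IFI27*, an interferon-induced gene (-0.61), and all of these overlapped between the sides.

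The calls of these genes were refitted without single libraries and without whole replicate numbers. Of the 12 largest rises, *SH2D3C*, *DNAH17-AS1*, *LINC00346*, *GPR3* and *HSPA1A* were called in all 12 fits without 1 library. Without all of replicate number 1, however, *DNAH17-AS1* (adjusted p = 0.36), *LINC00346* (adjusted p = 0.23) and *GPR3* (adjusted p = 0.50) were lost in edgeR, while *SH2D3C* and *HSPA1A* were called without any 1 number. *HIST1H1E* was lost without gag replicate 1 (adjusted p = 0.064) and *RHOB* without gag-pol replicate 2 (adjusted p = 0.054), both in edgeR. *ARC* was lost in 3 fits, without gag replicate 1, control replicate 1 or control replicate 2 (highest adjusted p = 0.095 in edgeR), and *CXCL2* in 3, without gag-pol replicate 1, NC replicate 1 or control replicate 1 (highest 0.068). *GEM* was lost in 6, *ZC3H12A* in 8 and *DNAH17* in 9. Of the 12 largest falls, *TRPM4* and *SLC44A2* were called in all 12 fits and without any 1 replicate number, *NPR3* was lost without NC replicate 1 (adjusted p = 0.056 in edgeR), and the other 8 described were lost in 5 to 9 fits.

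Of 33 tested immediate early genes, 11 were higher and 0 lower (33.3%, beside 3.23% called over all genes tested), their median log2 fold change was 0.35 against -0.01 over all genes, and all 33 values were above 0, as were 8114 of 17173 over all genes. Among the 11, *TRIB1*, a pseudokinase that steers protein degradation, rose by 0.60 (standard error 0.07, adjusted p = 1.9e-05 in edgeR). *KLF6*, a zinc-finger transcription factor, had 3231, 2626 and 2563 normalized counts with gag-pol, 2517, 2399 and 2959 with gag, 1529, 1982 and 2031 with NC, and 1485, 1558 and 1822 with control. Its sides did not overlap, and it rose by 0.65 (standard error 0.08, adjusted p = 0.00026 in edgeR). The AP-1 subunits *JUN* (0.61), *FOSL1* (0.60), *FOSL2* (0.35) and *JUND* (0.33) passed the test, as did *BTG2* (0.33), a brake on proliferation, *ZFP36* (0.38), which destabilizes messages, the nuclear receptor *NR4A1* (0.26), the survival factor *MCL1* (0.23) and *ARC*.

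The classical members *EGR1* and *FOS* were not called. *EGR1* differed by 1.27 (standard error 0.31, adjusted p = 0.10 in edgeR) and *FOS* by 0.84 (standard error 0.28, adjusted p = 0.18 in edgeR), and 26 of the 33 genes had an unadjusted p under 0.05, all in the upward direction. The group's median was 0.55 within replicate number 1, 0.39 within number 2 and 0.21 within number 3. The number called leaned on single libraries: it was 20 without gag-pol replicate 3 or control replicate 3, 7 without gag replicate 1, control replicate 1 or control replicate 2, and 6 without NC replicate 1. Without all of replicate number 1 it was 3, without number 2 it was 6 and without number 3 it was 22, and DESeq2 called 19. No member was called lower in any of these fits.

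Of the feedback inhibitors of the ERK kinase pathway, 4 of 18 tested members were higher and 0 lower (22.2%, beside 3.23% over all genes tested), with a median of 0.20. *DUSP1*, a nuclear phosphatase that switches off MAP kinases and whose CRE is printed above, had 2933, 2234 and 2993 normalized counts with gag-pol and 3454, 3029 and 4162 with gag. It had 1574, 1911 and 2632 with NC and 1767, 1601 and 2875 with control, so that gag-pol replicate 2 overlapped the replicate 3 libraries of the other side. The log2 fold change was 0.62 (standard error 0.08, adjusted p = 0.0012 in edgeR), and within the replicate numbers it was 0.93, 0.57 and 0.36. *DUSP5*, which acts on ERK itself, rose by 0.58, *DUSP7* by 0.35 and *SPRY2*, which blocks signalling upstream of ERK, by 0.32, and in each of these 3 the sides did not overlap. The number called was 6 without gag-pol replicate 3 or control replicate 3 and 1 without replicate number 1.

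Among NF-kB target genes, 5 of 18 were higher and 0 lower (27.8%, beside 3.23% over all genes tested), with a median of 0.27 and 15 values above 0, as were 8114 of 17173 over all genes. *CXCL2*, a chemokine that attracts neutrophils, was at a low level, with 138, 98.5 and 118 normalized counts with gag-pol and 145, 117 and 152 with gag. It had 50.2, 74.4 and 68.3 with NC and 52.9, 67.4 and 104 with control, and only control replicate 3 reached into the capsid-bearing range. Its log2 fold change was 0.89 (standard error 0.19, adjusted p = 0.0097 in edgeR). *TNFAIP3*, the ubiquitin-editing enzyme A20 that shuts NF-kB signalling off, rose by 0.68 (standard error 0.12, adjusted p = 0.011 in edgeR), from 439 to 1619 normalized counts in NC and control to 864 to 2106 in the capsid-bearing libraries. *RELB*, a subunit of NF-kB, rose by 0.48 (standard error 0.07, adjusted p = 0.00054 in edgeR) with nearly equal values of 0.48, 0.52 and 0.44 in the 3 replicate numbers. For *RELB*, NC was itself above control by 0.42 (adjusted p = 0.011), and gag-pol minus NC was 0.20 (adjusted p = 0.50), both in edgeR. *CD83* (0.41) and *NFKB2* (0.19) passed the test, while *CXCL8* (0.61, adjusted p = 0.11) and *NFKBIA* (0.41, adjusted p = 0.36) did not. The number called was 1 without gag-pol replicate 1 or control replicate 1, 2 without NC replicate 1, 3 without gag-pol replicate 2, gag replicate 1, gag replicate 3 or control replicate 2, 8 without control replicate 3 and 9 without gag-pol replicate 3.

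Of 28 tested heat shock genes, 4 were higher and 0 lower (14.3%, beside 3.23% over all genes tested). These were the inducible cytosolic chaperones *HSPA1A*, which rose by 0.92 (standard error 0.09), and *HSPA1B*, by 0.74 (standard error 0.09), and their co-chaperones *DNAJB1* by 0.36 (standard error 0.07) and *BAG3* by 0.22 (standard error 0.05), and edgeR's adjusted p was 0.00044, 0.00077, 0.0044 and 0.027 in that order. The other 24 were not called, among them the cytosolic chaperones *HSPH1* (0.15, adjusted p = 0.16) and *HSPB1* (0.12, adjusted p = 0.42), and the list's median was 0.079. The largest value of the list, 1.84, was that of a member not called. At an unadjusted p under 0.05 in edgeR there were 10 of the 28, 9 of them above 0, beside 17.3% of all genes tested. *HSPA1A* had 10686, 6500.2 and 4506 normalized counts with gag-pol, 8593, 6395 and 3394 with gag, 4323, 4327 and 2832 with NC, and 3481, 3285 and 2108 with control. The libraries of replicate number 3 were the lowest of each construct, so the sides overlapped over all libraries while each number had both capsid-bearing libraries above the other 2. *HSPA1A* and *HSPA1B* are nearly identical in sequence and lie side by side on chromosome 6, so the division of reads between them is uncertain. The number called was 6 higher without gag-pol replicate 3, 2 higher without replicate number 1, and 6 higher and 2 lower without replicate number 3.

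In the integrated stress response, 3 of 25 tested members were higher and 3 lower (24.0% in all, beside 3.23% over all genes tested). *ATF3*, a stress-induced transcription factor, rose by 0.59 (standard error 0.09, adjusted p = 0.0030 in edgeR), mostly with gag, where it had 11404, 7475 and 7369 normalized counts against 5658, 5024 and 4684 with gag-pol and 3445 to 4832 in the rest. *PPP1R15A*, which restores translation by dephosphorylating eIF2-alpha and whose CRE is printed above, rose by 0.64 (standard error 0.12, adjusted p = 0.020 in edgeR), and *CEBPB*, a transcription factor of inflammation and stress, by 0.35 without overlap of the sides. *NUPR1* (-0.48), the amino acid transporter subunit *SLC3A2* (-0.29) and the serine synthesis enzyme *PHGDH* (-0.25), all known targets of ATF4, fell. Of 20 tRNA synthetases, many of which ATF4 also drives, *CARS* (-0.31) and *WARS* (-0.22) fell and none rose. The list medians were -0.055 and -0.088.

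**Figure D2:**
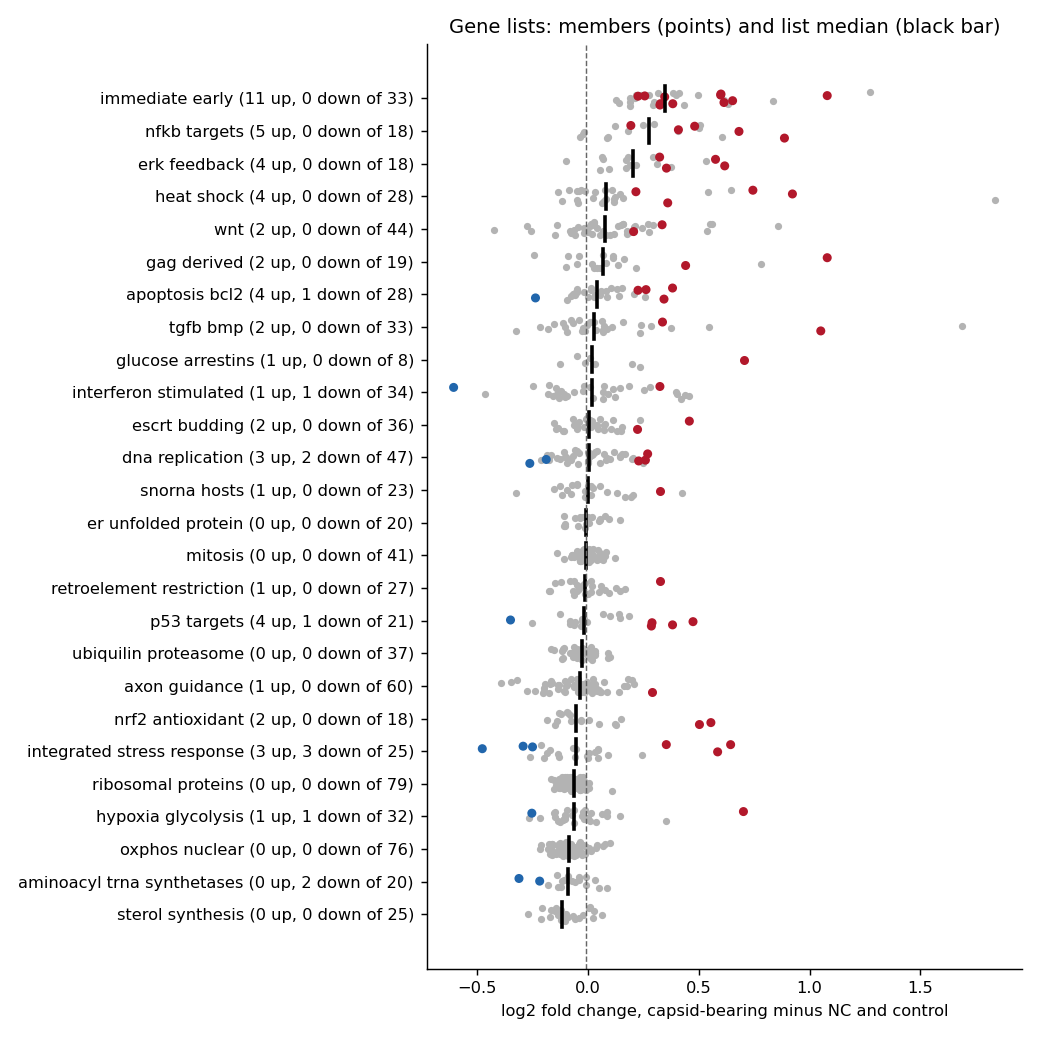
Log2 fold change between the sides (x axis) for every tested member of 26 gene lists, red for members called higher, blue for members called lower and grey for the rest, with a black bar at the list's median and a dashed line at the median of all genes tested (-0.01). The immediate early, NF-kB and ERK feedback lists have medians of 0.35, 0.27 and 0.20, while the ribosomal, oxidative phosphorylation and sterol lists lie just left of the line with no called member.

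The 7 lists that follow had medians of -0.063 to 0.077 on the log2 scale. Of 21 p53 targets 5 were called (23.8%, beside 3.23% over all genes tested), *BBC3*, *AEN*, *PLK3* and *CDKN1A* higher and the DNA repair gene *DDB2* lower. *AEN* had means of 5751, 5757, 5627 and 3938 normalized counts with gag-pol, gag, NC and control. Its NC minus control was 0.50 (adjusted p = 0.00056 in edgeR), while gag-pol minus NC and gag minus NC were both 0.04 and not called. Of 28 apoptosis genes 5 were called (17.9%), *BBC3* again, *CASP8*, *PMAIP1* and *MCL1* higher and *APAF1*, the core of the apoptosome, lower. *CASP8* had 0.02 for gag-pol minus control and 0.46 for gag minus control. *PMAIP1* had 0.17 for gag-pol minus control and -0.05 for gag-pol minus NC, neither called, and 0.58 for gag minus control. Its call was lost in 7 of the 12 fits without 1 library. The NRF2 targets *HMOX1* (0.50), which degrades heme, and *OSGIN1* (0.55) were the 2 called of 18 (11.1%), both higher. Gag-pol minus control was -0.01 for *HMOX1* and 0.05 for *OSGIN1*. *ADM*, the peptide adrenomedullin, rose by 0.70 and *BNIP3L*, a mitophagy receptor, fell by 0.25 among 32 hypoxia and glycolysis genes (6.25% called). Of 33 TGF-beta and BMP genes *INHBA*, an activin subunit, and *ID3* (0.34) were called higher (6.06%). For *ID3*, gag-pol minus control was -0.21 and NC minus control was -0.51 (adjusted p = 0.0089 in edgeR). *INHBA* was at a low level, with 41.3 to 91.7 normalized counts in the capsid-bearing libraries, 25.6 to 75.3 with NC and 16.6 to 24.0 with control, and rose by 1.05 (adjusted p = 0.025 in edgeR). NC was itself above control by 1.36 (adjusted p = 0.024 in edgeR), while gag-pol minus NC (0.41) and gag minus NC (0.34) were not called. Of 44 Wnt genes (4.55% called) the destruction-complex scaffolds *AXIN1* (0.21) and *AXIN2* (0.33) rose. Their calls were lost in 8 and 9 of the 12 fits without 1 library, and without replicate number 1 or 2. Of 47 replication genes 3 were higher and 2 lower (10.6% called), by at most 0.27. *POLD3*, *MCM10* and *GINS3* were higher, and *MCM6* was among the lower. *POLD3* and *MCM10* were each lost in 7 of the 12 fits without 1 library.

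Gene groups close to the biology of a gag protein and 2 further lists had medians of -0.037 to 0.068 on the log2 scale. Of 19 tested genes derived from gag elements other than *PEG10*, *ARC* and *ZCCHC12* (0.44, standard error 0.07) rose and the other 17 were not called (10.5% called, beside 3.23% over all genes tested). *ZCCHC12* had means of 2300 normalized counts with gag-pol, 3164 with gag, 1660 with NC and 2304 with control. Its gag-pol minus control was -0.03, and its NC minus control was -0.49 (adjusted p = 0.0065 in edgeR). Of 36 genes of the ESCRT machinery, which viruses use to bud from cells, *VPS37B* (0.46, standard error 0.07), an ESCRT-I subunit, and *NEDD4L* (0.22, standard error 0.05), a ubiquitin ligase that recruits ESCRT to gag proteins, rose (5.56%). For *VPS37B* and *NEDD4L*, gag-pol minus control was 0.23 and 0.10, neither called. *NEDD4L* was lost in 7 of the 12 fits without 1 library. Of 27 genes that restrict retroelements *ZNFX1* (0.32) rose (3.70%), and of 34 interferon-stimulated genes *IRF1* (0.32) rose and *IFI27* fell (5.88%). Of the 12 fits without 1 library, *ZNFX1* was lost in 7, *IRF1* in 9 and *IFI27* in 8. None of 37 ubiquilin and proteasome genes was called, with a median of -0.027 and 3 at an unadjusted p under 0.05, all below 0. Of 60 axon guidance genes the ligand *EFNA1* (0.29) rose (1.67% called), and of 23 snoRNA host genes *SNHG17* (0.32, 4.35% called). Among the 60, 21 values were above 0, and 15 genes had an unadjusted p under 0.05 in edgeR, 5 of them above 0. *EFNA1* was lost in 10 of the 12 fits without 1 library and in all 3 without a replicate number. *SNHG17* was lost in 8 of the 12. Gag-pol minus control was 0.05 for *EFNA1* and -0.22 for *SNHG17*, neither called.

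Housekeeping groups had no called member in edgeR. The medians were -0.062 for 79 ribosomal protein genes, -0.086 for 76 nuclear-encoded oxidative phosphorylation genes, -0.12 for 25 sterol synthesis genes, -0.011 for 41 mitosis genes and -0.0095 for 20 genes of the unfolded protein response of the endoplasmic reticulum. At an unadjusted p under 0.05 there were 5, 13, 9, 1 and 0 genes, in that order, all below 0. The ribosomal protein median was -0.13, -0.22 and 0.16 in replicate numbers 1, 2 and 3, so its direction differed between numbers.

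The sides each join 2 constructs, so the same difference was followed in the pairs. Gag-pol minus NC and gag minus control share no library, and over 17173 genes these differences had a Spearman correlation of 0.22 (Pearson 0.087), while gag-pol minus control and gag minus NC had -0.35 (Pearson -0.34). The values share replicate numbers, expression level and fit, and are a description. The difference of the 2 steps, (gag-pol minus NC) minus (gag minus control), was called in 5 of the 555 genes, beside 9 of all genes (0.0524%): *SLC44A2*, *SLC43A2*, *TRPM4*, *C11orf96* and *RWDD2B*, the last outside the naming rule (adjusted p = 0.011 in edgeR). Gag-pol against NC called 14 genes (0.0815%), gag against control 183 (1.07%), gag-pol against control 1939 (11.3%) and gag against NC 2895 (16.9%). All 4 of these differences had the same sign in 481 of the 555 genes and in 4923 of all 17173. The side difference is a mean of these pairs, so its calls favour like signs.

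Within the sides, 78 of the 555 genes differed between gag-pol and gag (14.1%, beside 6.46% of all genes tested) and 88 between NC and control (15.9%, beside 11.2%), and 425 were called in neither. A gene not called within a side is not shown to be equal there. When gag-pol and NC were set against gag and control, 166 of the 555 genes were called (29.9%, beside 24.7%). The lower genes held more of these, 77 of 171 (45.0%), than the higher genes, 89 of 384 (23.2%), and that difference was not tested. Leaving out gag replicate 1 or 2 took the count between gag-pol and gag to 13 or 46, and leaving out gag-pol replicate 3 took it to 20. Leaving out NC replicate 1 or 3 took the count between NC and control to 55 or 46, and leaving out control replicate 2 or 3 took it to 55 or 31.

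**Figure D3:**
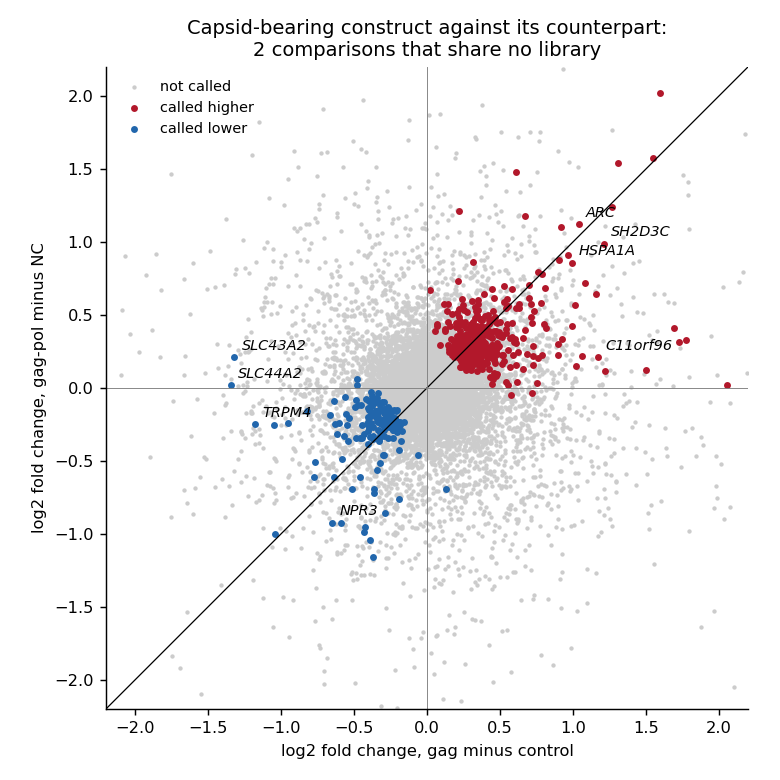
Log2 fold change of gag minus control (x axis) against gag-pol minus NC (y axis), 2 differences without a shared library, for the genes tested, with the diagonal of equal change; genes beyond the axes are not drawn. *ARC*, *SH2D3C* and *HSPA1A* lie near the diagonal, and *SLC44A2* and *SLC43A2* lie at 0.02 and 0.21 on the y axis and at -1.35 and -1.32 on the x axis.

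The replicate numbers differed in size of effect. The median log2 fold change of the 384 higher genes was 0.49 within number 1, 0.29 within number 2 and 0.21 within number 3, and of the 171 lower genes -0.36, -0.30 and -0.19. Number 1 had the largest difference for 336 of the higher and 102 of the lower genes, beside 6558 of all 17173. The mean *PEG10* share of the capsid-bearing libraries was 6.64%, 3.63% and 4.45% in numbers 1, 2 and 3, against 0.169%, 0.136% and 0.206% in the rest. Its part in the result was not tested.

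**Figure D4:**
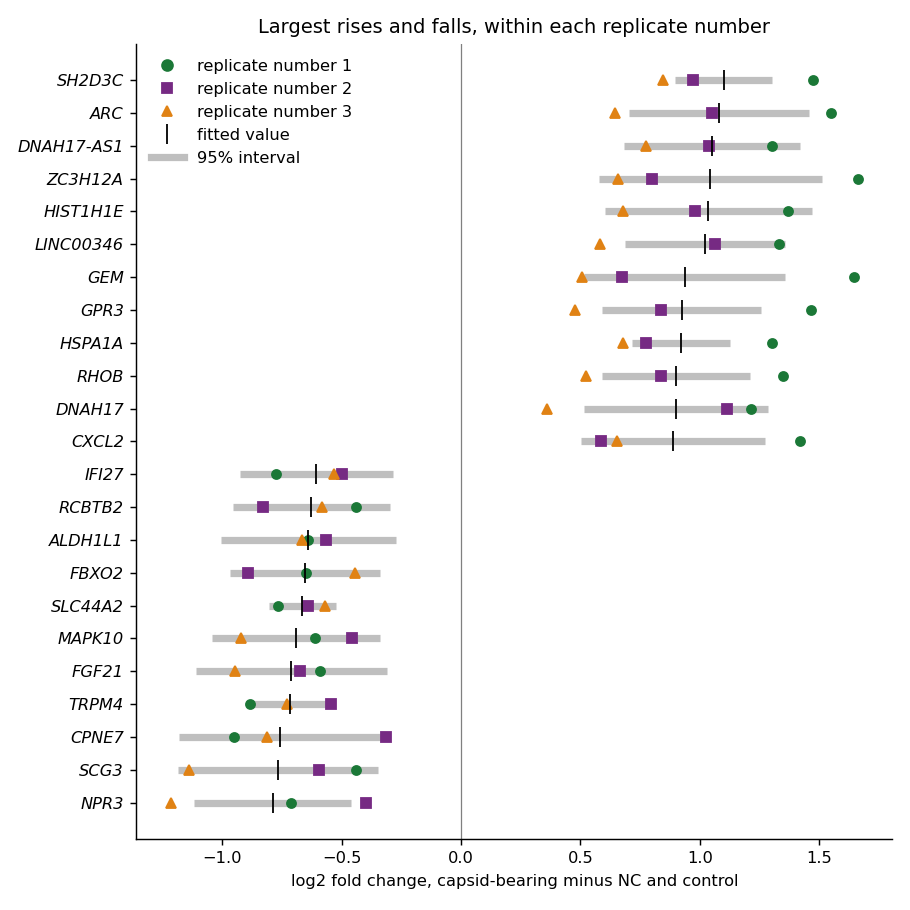
Log2 fold change between the sides (x axis) for the 12 largest rises and 11 of the 12 largest falls, within replicate numbers 1 (circles), 2 (squares) and 3 (triangles), with the fitted value as a tick and its 95% interval as a grey bar. All 3 values of each gene lie on the same side of 0, which the choice of genes required, and number 1 is highest for each of the rises shown.

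The number of genes called rested on single libraries. Leaving out gag-pol replicate 1 gave 155 genes and gag-pol replicate 2 gave 314, gag replicates 1 and 2 gave 156 and 314, NC replicate 1 gave 96, and control replicates 1 and 2 gave 186 and 261. Leaving out gag-pol replicate 3 raised it to 1020 and control replicate 3 to 976. Without all of replicate number 1 it was 19, without number 2 it was 260 and without number 3 it was 2155, of which 978 were higher and 1177 lower. Of the 65 genes named by rule, 13 were called in all 3 of these last fits, among them *SH2D3C*, *HSPA1A*, *TXNIP*, *DUSP1*, *KLF6*, *ATF3*, *RELB*, *TRPM4* and *SLC44A2*. In all 12 fits without 1 library, 24 of the 65 were called.

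**Figure D5:**
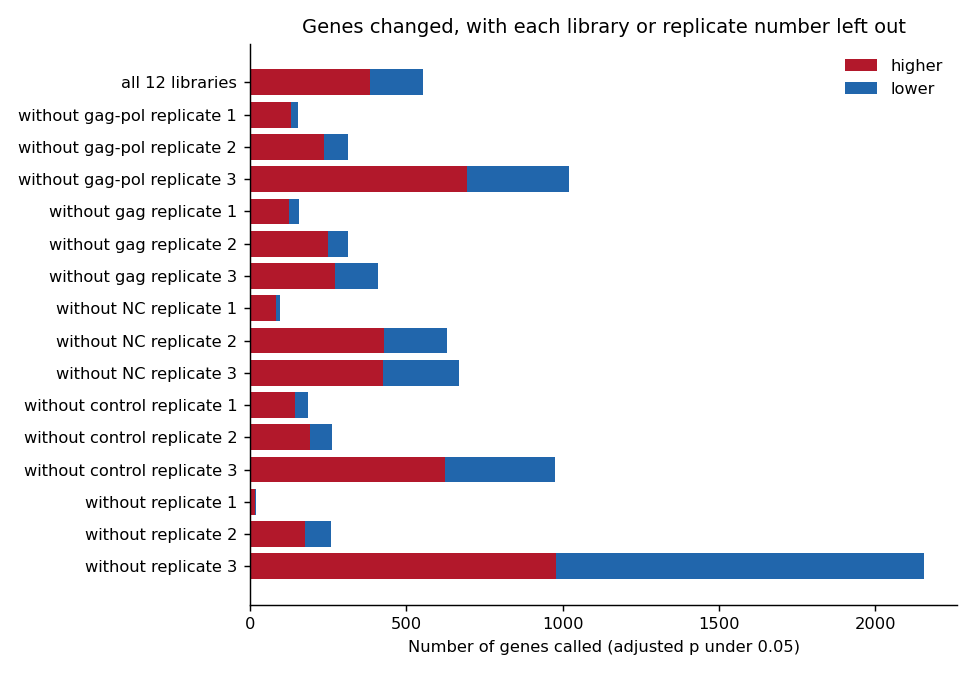
Number of genes called at an adjusted p under 0.05 (x axis, from 0), split into higher (red) and lower (blue), with all 12 libraries and with each library or replicate number left out. The bars run from 19 genes without replicate 1 to 2155 without replicate 3, beside 555 with all libraries.

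The changed genes shared some features that the comparison did not use. The median log2 CPM was 5.38 for the higher and 5.77 for the lower genes, against 4.39 for all genes tested, and the median GC content of their transcripts was 51.2% and 50.7%, against 48.8%. Median transcript length was 4024, 3753 and 3631.5 bases, and median gene span 26224, 42101 and 29993 bases, in the same order. Well-expressed genes are tested with more precision, and fitting the counts with a GC and length trend removed called 566 genes.

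In the promoters, searched over 250 bases before the RefSeq start on both strands, the CRE letters were found in 14 of 317 higher genes with a promoter in the table (4.42%), in 2.76% of the 12807 tested genes with one, and in 1.65% of all 35116 promoters. The NF-kB letters were found in 5 of the same 317 (1.58%), 1.45% and 1.40%, and in 6 of 15 promoters of the NF-kB list. The AP-1 letters TGANTCA were in 5.99%, 4.01% and 6.57%, the heat shock element (GAA, TTC and GAA, each parted by 2 free bases) in 0.946%, 0.359% and 0.441%, and the CArG box of serum response factor in 1.26%, 1.01% and 1.16%. Of 140 lower genes with a promoter in the table the CRE letters were in 4 (2.86%), the NF-kB letters also in 4 (2.86%), the AP-1 letters in 3.57%, the CArG box in 1.43% and the heat shock element in 0. Among the falls described above, *MAPK10* has the CRE letters 79 bases before its start and *SLC43A2* the AP-1 letters 34 bases before its start. These shares are descriptions of letters in a short window and were not tested.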

How the data were processed

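Poly(A) RNA from HEK293 cells was sequenced as read pairs on a NovaSeq. Per the study's methods and the submitters' processing notes, the authors mapped reads to GRCh38.p13 with STAR 2.7.3, handled them with SAMtools 1.8 and counted them with featureCounts, and they deposited raw counts per gene symbol, 1 column per library, with no normalization. The annotation release, strand setting and handling of multi-mapping reads are not given in the sources used here. They modelled harvest date and construct in DESeq2.

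Groups came from the sample labels. Counts were fitted with edgeR 4.0.16 in R 4.3.3 (TMM factors, low-count filter with minimum count 10 and minimum total 15, robust quasi-likelihood test, construct and replicate number as terms, 6 residual degrees of freedom), and p-values were adjusted by Benjamini-Hochberg over 17176 genes, which hold 99.97% of counts. The biological coefficient of variation was 10.7%. Unless another test is named, every p-value and call comes from this edgeR fit. Log2 fold changes come from the fit, and values within a replicate number are differences of that number's 4 libraries. Replicate number was used as the block because same-numbered libraries of different constructs deviated together: correlations were 0.138 to 0.539 over 18 such pairs and -0.498 to 0.072 over 36 pairs of different number. GEO's design text states 3 passages, but neither passage nor harvest date is given per library. Replicates of a construct differed beyond counting noise (chi-square per degree of freedom 32.1 to 107), in cultures of 1 cell line. The p-values measure the spread left after construct and replicate number are fitted. They do not measure the shared spread between replicate numbers, which the block takes out.

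The members and gene lists were chosen with earlier results of these data known. Genes were named by a rule: among those called, expressed at 1 log2 CPM or more on average and moving 1 way in all 3 replicate numbers, the 12 that rose most and the 12 that fell most, then the 3 rises and 3 falls with the smallest adjusted p among these, and up to 3 called members of each list with the smallest adjusted p. Other list members are given to describe their list and were picked after their values were seen.

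Positions are from GENCODE 44 (GRCh38) by symbol or RefSeq synonym, and promoters from a RefSeq table (GRCh38.p14). DESeq2 1.42.0, limma-voom 3.58.1, other scaling, filters, thinning, a GC and length trend (known for 95.1% of genes) and fits without each library or replicate number were tried. Refits of the 4 list counts were added after seeing the data. The fit was tested on simulated data with known changes. Results for 2 genes that the naming rule picked are not reported here.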

Additional observations from a re-analysis of the deposited data

Results flagged for a closer look

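For 4 of the genes named, the step from a construct without the capsid part to one with it differed between the pair of gag-pol and NC and the pair of gag and control, by a test of the difference itself, (gag-pol minus NC) minus (gag minus control), in edgeR. *SLC44A2* had a difference of 1.36 (adjusted p = 1.3e-05), from 0.02 for gag-pol minus NC and -1.35 for gag minus control. *SLC43A2* had 1.53 (adjusted p = 8.9e-05), from 0.21 and -1.32. *TRPM4* had 0.93 (adjusted p = 0.0086), from -0.25 and -1.18. *C11orf96* had -0.96 (adjusted p = 0.0022), from 0.21 and 1.17, in the same test. In all 4 the larger step was that of gag minus control.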

How the results depend on the processing

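The direction of all 65 named genes was kept in each of 1690 alternative values, and the call was lost in 415 of them. Beside the 555 genes called between the sides (384 higher, 171 lower), DESeq2's Wald test called 908 (587 and 321, 549 of them shared), and a minimum absolute log2 fold change of 0.5 left 82 (59 and 23). Over the fits without 1 library or 1 replicate number, genes changed ran from 19 to 2155, genes higher from 16 to 978 and genes lower from 3 to 1177, the lowest without replicate number 1 and the highest without number 3. Among the 555, those differing between gag-pol and gag ran from 4 to 108 over these fits, those differing between NC and control from 31 to 96, those differing in the split that joins gag-pol with NC from 96 to 162, and those with unlike steps with and without pol from 1 to 19, beside 17 with DESeq2. The causes were not tested. The settings with all libraries and the block gave 446 to 908 genes apart from the fold limit.

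Without the replicate block, 3 genes were called (2 higher, *SH2D3C* and *RHOB*, and 1 lower, *SLC44A2*), with 905 at an unadjusted p under 0.05. Of the 555, 0 then differed between gag-pol and gag, 1 between NC and control, 0 in the split that joins gag-pol with NC and 1 in the steps, and 0 immediate early, NF-kB, ERK feedback and heat shock members were called. With 3 libraries per construct and at least 30625725 counts in each, small changes can be missed, so a gene not called is not shown to be equal.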
